A study of Mus musculus with 15 samples.

Results

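The 32 genes described here are targets of the transcription factor p53 whose known work lies outside cell-cycle arrest and the core of apoptosis. They act in DNA repair, metabolism, protein turnover, autophagy, growth control and secretion. They were chosen by symbol from a list of known targets, and all 32 were found among the 36144 genes of the table. The study asked how p53 signalling in vulnerable motor neurons responds to treatment in a mouse model of spinal muscular atrophy (SMA), a disease caused by loss of the survival motor neuron protein SMN. Motor neurons that had taken up cholera toxin subunit B, a retrograde tracer, were cut by laser from lumbar segments L1 to L3 of pups at postnatal day 6, on an FVB background and with equal proportions of the sexes. Low-input poly(A) RNA was sequenced from 15 libraries in 5 groups of 3.

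WT mice were Smn+/+;SMN2;SMNΔ7, so the controls carried the human SMN2 and SMNΔ7 transgenes as well, and they were given vehicle. All other mice were Smn−/−;SMN2;SMNΔ7 littermates without functional mouse Smn. SMA mice were given vehicle, SMA+MW150 mice an inhibitor of the stress kinase p38α at 5 mg/kg, SMA+Pifithrin-α mice an inhibitor of p53 at 2.2 mg/kg, and SMA+SMN-C3 mice 3 mg/kg of a compound that modifies the splicing of SMN2. Each agent was given daily into the peritoneum from postnatal day 0. The labels call the samples biological replicates without saying which or how many animals each came from, so p-values measure the spread between these samples.

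As background, p53 is held low in resting cells by MDM2, which marks it for destruction. DNA damage and other stresses free it, and it then binds paired half-sites near its target genes. Beside arrest and death genes it turns on repair enzymes, sestrins and REDD proteins that restrain growth signalling, feedback genes that act on p53 itself, and mitotic regulators. Activation of p53 is a known feature of degenerating motor neurons in SMNΔ7 mice.

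Expression was given as TPM, a transcript abundance scaled for length, whose values sum to the same total in each library and hold no counts, so the depth behind a value is unknown. Smn1 was at 8.97, 16.5 and 23.3 TPM in WT and 0.462, 0 and 0 in SMA, and at most 1.498 TPM in the treated libraries. The 9 motor neuron markers summed to 1691 TPM in SMA+Pifithrin-α 3, 2092 TPM in WT 1 and 3421 to 5014 TPM in the other 13 libraries. None of the 9 was at 0 throughout a group. The mitochondrial share of TPM was 21.9% for WT 1 and 20.4% for SMA+Pifithrin-α 3, against 3.76% to 12.6% in the other 13 libraries. Those 2 libraries were also low for the targets. WT 1 was the lowest of its group for 19 of the 32, and SMA+Pifithrin-α 3 for 27 of the 32. This was not particular to them: SMA 3 was lowest for 21 and SMA+SMN-C3 1 for 17, at mitochondrial shares of 5.88% and 11.3%. Counts of calls are given with and without WT 1 and SMA+Pifithrin-α 3. So are the differences and returns that moved most when these 2 were left out. Shares of all tested genes are given for the main fit of all 15 libraries. Counts of targets from other fits have no such share beside them.

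Between SMA and WT, 8 of the 32 targets rose and 0 fell in limma's test, which was run on log2(TPM+1) over 15425 genes with Benjamini-Hochberg adjustment. Among all tested genes 0.363% were called in either direction and 0.357% were called higher. The 8 were Perp, Ddit4l, Gtse1, Polk, Plk2, Aen, Ephx1 and Ccng1. Their log2 differences lay between 1.75 for Ccng1 and 2.79 for Perp. For 21 targets every SMA library was above every WT library, which held for 14.5% of tested genes. The differences reached 1 or more on the log2 scale for 19 targets, against 8.01% of tested genes. The median difference was 1.22 over the 32 targets and 0.24 over all tested genes, and 20 targets had an unadjusted p under 0.05, against 13.5% of tested genes. Gtse1, Gdf15 and Epha2 reached 1 TPM in 0 WT libraries and entered the test only through libraries of Smn−/− mice, so a higher value than in WT was in part fixed by the filter. Their comparisons with WT are descriptions. Over the other 29 targets 7 were called, 19 did not overlap, 17 differed by 1 or more and the median was 1.27. Without WT 1 and SMA+Pifithrin-α 3, 9 were called, the median was 1.04, and Phlda3 and Ei24 took the place of Polk. The count was 3 without WT 2, 2 without SMA 1 and 5 without SMA 2. The share called and the median over all tested genes in these fits are not given here, so they describe the targets alone. Perp and Plk2 passed the threshold in each of the 6 fits that left out 1 WT or SMA library.

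**Figure D1:**
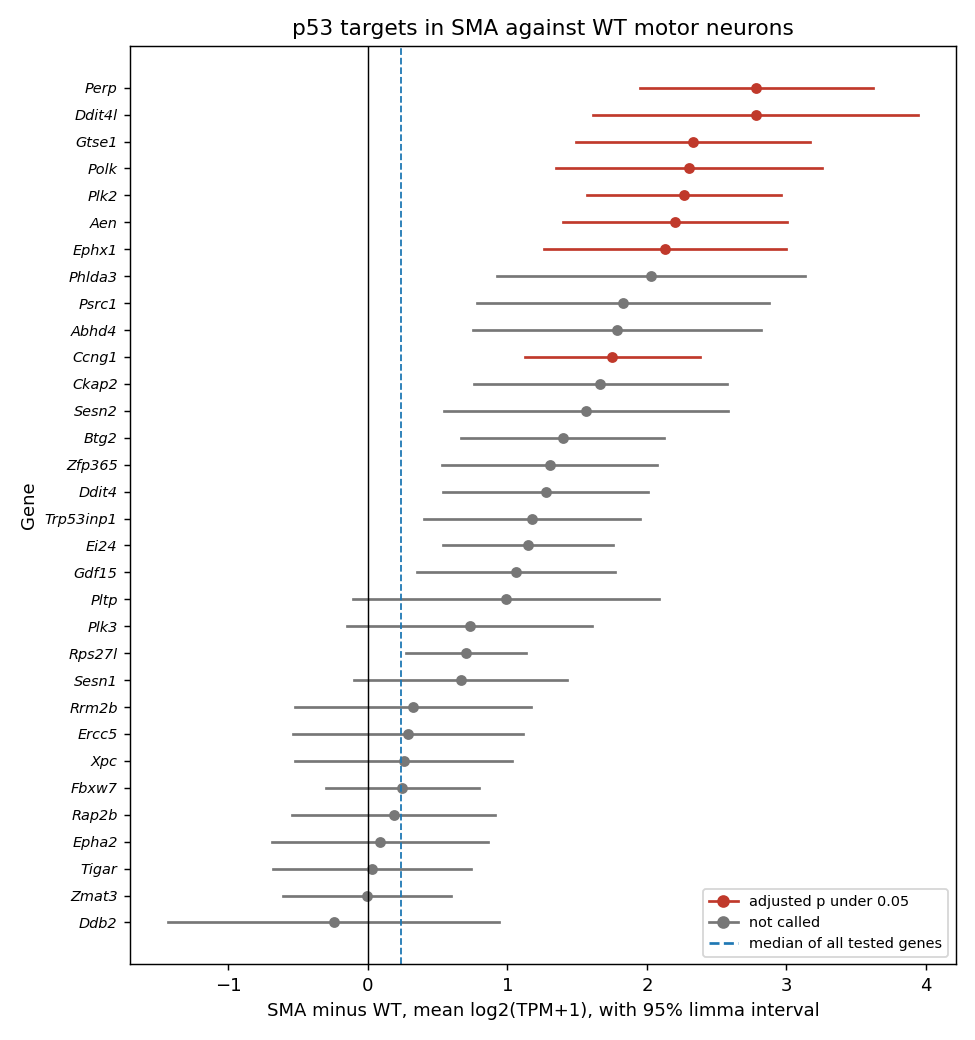
Difference between SMA and WT for the 32 targets, as mean log2(TPM+1) in SMA minus that in WT, with the 95% limma interval as a line (n = 3 libraries in each group). The 8 called targets are red and range from 1.75 to 2.79, the dashed line marks the median of all tested genes at 0.24, and 9 targets lie within 0.5 of 0.

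Markers of other cells moved with the same contrast. All 12 microglia markers had a higher mean in SMA than in WT, and their sum was 59.8 to 94.0 TPM in WT and 174 to 204 TPM in SMA. It was 131 to 178 TPM in SMA+MW150, 68.9 to 127 in SMA+Pifithrin-α and 92.2 to 128 in SMA+SMN-C3, and none of the 12 was at 0 throughout a group. With the microglia mean as a term in the fit, 0 of the 32 targets were called in SMA against WT with limma and 8 had an unadjusted p under 0.05 with a higher value in SMA. Perp then differed by 2.86 with an adjusted p of 0.33, and Plk2 by 1.75 with an adjusted p of 0.43. Without the term these 2 targets differed by 2.79 and 2.27. The microglia sums of WT and SMA did not overlap, so the term and the contrast cannot be told apart in this fit. All 10 astrocyte markers, 8 of 10 oligodendrocyte lineage markers and all 5 red blood cell markers also had a higher mean in SMA. Of 7 spinal interneuron markers 4 were higher and 3 lower, and of 9 vascular markers 4 were higher and 5 lower. Of the 9 motor neuron markers 6 had a higher mean in SMA, with a median difference of 0.32. The part of all these markers in the differences of the targets was not tested. In captured bulk tissue, fewer cells of a type and less RNA per cell cannot be told apart.

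The promoters of the targets that rose are shown because p53 binds its half-sites directly, and a reader can see where such letters lie. RefSeq windows on GRCm38.p6, from 250 bases before to 50 after a start, were on hand for 26 of the 32 targets. Each was searched for the p53 half-site consensus, a motif of 10 letters that reads the same on both strands as a pattern. A match was found for 11 of these 26 targets (42.3%), against 9.55% of the 27025 genes with a window, and in 12 of 36 windows (33.3%) against 8.36% of 32851. The targets were chosen as known p53 targets, so a higher share than over all genes is in part fixed by the choice. Among the called targets 5 of 7 with a window had a match, and among the 9 that differed by at most 0.5 it was 1 of 5. Abhd4, Ckap2, Ei24, Rps27l and Sesn1, which belong to neither group, also had a match. In the lines that follow, capitals mark the match, read 5′ to 3′ on the strand of the gene. The last is from Rap2b, a target that differed little.
Ccng1, chr11:40755437-40755496, minus strand: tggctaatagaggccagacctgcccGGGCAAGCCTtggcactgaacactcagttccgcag
Gtse1, chr15:85859945-85859974, plus strand: gagcaagttgGGGCTTGCCTctgacttgcc
Polk, chr13:96519384-96519437, minus strand: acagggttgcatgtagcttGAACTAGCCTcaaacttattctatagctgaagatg
Ddit4l, chr3:137623557-137623616, plus strand: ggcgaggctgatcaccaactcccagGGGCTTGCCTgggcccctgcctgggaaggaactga
Aen, chr7:78895927-78895956, plus strand: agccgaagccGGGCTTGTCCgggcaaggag
Rap2b, chr3:61364530-61364556, plus strand: gcgacgtactGGGCATGCTCggctggg

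In Ccng1 the match began at position -185 relative to the RefSeq start, and the 10 letters just beside it differed from the consensus at 1 position, so the pair was nearly a full element. Gtse1 had the same arrangement 10 bases after its start, inside annotated exon. The neighbour of the Polk match, 1 base away, also differed at 1 position, and this match lay at -231 relative to the start of the shorter transcripts rather than that of the main coding form. For Ddit4l the match began at -90, and the best neighbour differed at 3 positions. In Rap2b the best neighbour differed at 4 positions. That match began 34 bases after the start, too near the end of the window for a neighbour after it to be searched. A match describes letters only and is not evidence of binding.

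Among the 6 repair and genome stability genes, Polk rose in SMA and Zfp365 was the other with a difference above 1. Polk encodes the translesion polymerase kappa, which copies past damaged bases (chr13:96480690-96542579 on GRCm38). Its level was 0.474, 1.24 and 2.55 TPM in WT, 13.0, 11.04 and 7.36 in SMA, 12.8, 6.35 and 4.81 in SMA+MW150, 5.17, 7.81 and 7.32 in SMA+Pifithrin-α and 3.16, 0.489 and 1.63 in SMA+SMN-C3. The SMA libraries lay above all WT libraries, and the SMN-C3 libraries overlapped WT and lay below SMA. The difference between SMA and WT was 2.30 ± 0.45 (log2, SE, adjusted p = 0.032). Zfp365, which protects fragile sites and stalled replication forks, was at 5.72, 7.76 and 7.13 TPM in WT, 22.1, 19.0 and 14.5 in SMA, 22.5, 13.5 and 20.1 in SMA+MW150, 19.0, 23.0 and 10.2 in SMA+Pifithrin-α and 3.78, 4.92 and 9.50 in SMA+SMN-C3. Again SMA lay above WT without overlap and SMN-C3 overlapped WT, with a difference between SMA and WT of 1.30 ± 0.37 (SE, adjusted p = 0.18).

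The other 4 repair genes differed little between SMA and WT. Xpc and Ddb2, which recognise ultraviolet damage for nucleotide excision repair, were at 4.68, 5.96 and 4.24 TPM in WT and 4.52, 5.30 and 9.19 in SMA and at 3.41, 2.58 and 4.76 TPM in WT and 2.44, 5.65 and 1.39 in SMA. For Ercc5, the nuclease that cuts beside such damage, the values were 15.9, 6.72 and 7.44 TPM in WT and 17.7, 9.77 and 8.92 in SMA. Those of Rrm2b, the p53-induced subunit of ribonucleotide reductase, were 14.6, 5.21 and 3.57 TPM in WT and 10.1, 9.20 and 6.64 in SMA. The groups overlapped for all 4. The 95% intervals of the log2 difference were -0.52 to 1.04 for Xpc, -1.43 to 0.94 for Ddb2, -0.54 to 1.11 for Ercc5 and -0.52 to 1.17 for Rrm2b. The upper limits exceed 1 for Xpc, Ercc5 and Rrm2b, so a p that misses the threshold does not show equal levels. Ercc5 was at 3.995, 7.98 and 6.26 TPM in SMA+SMN-C3 and Rrm2b at 3.39, 3.90 and 5.15 TPM in SMA+SMN-C3, both below every SMA library.

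Among the 7 genes of metabolism and growth signalling, Ddit4l and Ephx1 rose in SMA. Ddit4l, also called REDD2, restrains the growth kinase mTORC1 (chr3:137621612-137628333). It was at 5.06, 1.197 and 0.351 TPM in WT, 31.6, 18.6 and 8.14 in SMA, 19.6, 14.1 and 9.85 in SMA+MW150, 18.3, 7.44 and 7.02 in SMA+Pifithrin-α and 0.354, 1.07 and 0.728 in SMA+SMN-C3. Every SMA library exceeded every WT library, and all 3 SMN-C3 libraries lay within the WT range. SMA exceeded WT by 2.78 ± 0.55 (SE, adjusted p = 0.035). Ephx1, the microsomal epoxide hydrolase that detoxifies reactive epoxides (chr1:180976210-181020904), was at 5.52, 8.66 and 18.9 TPM in WT, 59.1, 42.3 and 39.3 in SMA, 57.7, 47.5 and 31.2 in SMA+MW150, 57.2, 39.9 and 21.7 in SMA+Pifithrin-α and 27.7, 44.7 and 41.7 in SMA+SMN-C3. Here every library of all 4 Smn−/− groups was above every WT library, SMN-C3 included, and SMA exceeded WT by 2.13 ± 0.41 (SE, adjusted p = 0.030). With WT 1 and SMA+Pifithrin-α 3 left out the Ephx1 difference was 1.77. An exon of Gm36961 overlaps Ephx1 on the same strand, so their reads may be shared.

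Sesn2 and Ddit4 had SMA libraries above all WT libraries without being called. Sesn2, a sestrin that senses leucine and damps mTORC1, was at 2.82, 10.5 and 10.3 TPM in WT, 27.9, 22.01 and 18.3 in SMA, 23.9, 22.9 and 5.66 in SMA+Pifithrin-α and 9.74, 13.2 and 14.7 in SMA+SMN-C3, a difference between SMA and WT of 1.56 ± 0.48 (SE, adjusted p = 0.23) that was 1.03 without WT 1. Ddit4, or REDD1, the stress-induced sister of Ddit4l, was at 6.76, 7.97 and 9.19 TPM in WT, 25.8, 18.2 and 18.5 in SMA, 15.1, 17.5 and 6.10 in SMA+Pifithrin-α and 8.33, 12.9 and 10.9 in SMA+SMN-C3, a difference of 1.27 ± 0.35 (SE, adjusted p = 0.17). In both genes SMA+Pifithrin-α 3 was the lowest of its group. The difference of the related sestrin Sesn1 was 0.66 with overlapping groups. Pltp, a lipid transfer protein of plasma and brain, differed by 0.99 and lay just outside the threshold of 1 that was set for ranking, with Gdf15 just inside at 1.06. Tigar, a phosphatase that lowers glycolysis, was at 6.57, 9.25 and 16.6 TPM in WT, 10.8, 8.54 and 11.9 in SMA and 14.7, 13.0 and 13.0 in SMA+MW150. Its WT and SMA libraries overlapped, with an interval of the difference from -0.68 to 0.74. The MW150 libraries of Tigar were all above those of SMA, which held for 7.53% of tested genes, by 0.36 on the log2 scale.

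Of the 4 genes of p53 feedback, RNA binding and protein turnover, Ccng1 rose in SMA. Ccng1 encodes cyclin G1, which recruits a phosphatase to MDM2 and so feeds back on p53 (chr11:40748552-40755311). It was at 21.4, 12.5 and 22.5 TPM in WT, 95.2, 46.7 and 58.2 in SMA, 64.3, 50.1 and 45.1 in SMA+MW150, 67.1, 87.0 and 77.9 in SMA+Pifithrin-α and 43.4, 36.5 and 35.7 in SMA+SMN-C3. No library of any Smn−/− group overlapped WT, and the Pifithrin-α libraries were within the SMA range. SMA exceeded WT by 1.75 ± 0.30 (SE, adjusted p = 0.012). Rps27l, a p53-induced copy of a ribosomal protein, was the most abundant target in TPM at 468, 481 and 438 TPM in WT and 920.5, 725 and 642 in SMA. Its groups did not overlap, with a difference of 0.71 ± 0.20 (SE, adjusted p = 0.19), and reads may be split with its close paralogue Rps27. Zmat3, an RNA-binding protein that shapes splicing, was at 12.0, 9.07 and 9.83 TPM in WT and 8.28, 12.2 and 10.4 in SMA, and Fbxw7, which selects cyclin E and MYC for destruction, was at 41.6, 62.3 and 70.6 TPM in WT and 71.5, 67.4 and 64.1 in SMA. Both overlapped between WT and SMA, with intervals of -0.61 to 0.59 for Zmat3 and -0.30 to 0.80 for Fbxw7.

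All 6 targets with roles in death and autophagy had SMA libraries above all WT libraries, and Perp and Aen were called. Perp is a membrane protein of desmosomes that also takes part in p53-dependent death (chr10:18845020-18857073). It was at 6.22, 5.79 and 11.02 TPM in WT, 118, 38.6 and 40.1 in SMA, 32.7, 39.4 and 21.8 in SMA+MW150, 40.5, 46.3 and 30.9 in SMA+Pifithrin-α and 11.8, 12.3 and 16.8 in SMA+SMN-C3. SMA 1 stood well above the other SMA libraries, all SMA libraries exceeded WT, and the SMN-C3 libraries lay between WT and SMA without touching either. SMA exceeded WT by 2.79 ± 0.39 (SE, adjusted p = 0.0026). Aen, a nuclease that degrades DNA in dying cells (chr7:78895854-78911209), was at 11.52, 33.0 and 36.8 TPM in WT, 166, 85.7 and 107 in SMA, 103, 106 and 84.1 in SMA+MW150, 112, 80.6 and 54.4 in SMA+Pifithrin-α and 75.1, 62.3 and 82.6 in SMA+SMN-C3. Every library of the Smn−/− groups was above WT, and SMA exceeded WT by 2.20 ± 0.38 (SE, adjusted p = 0.014), or by 1.69 without WT 1.

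The other 4 of this role were not called. Phlda3, a repressor of AKT signalling, was at 39.7, 136 and 169 TPM in WT, 549, 352 and 329.5 in SMA and 235, 259.99 and 249.7 in SMA+SMN-C3, and its difference between SMA and WT was 2.03 ± 0.52 (SE, adjusted p = 0.14). In SMA+Pifithrin-α it was at 341.5, 319.4 and 72.6 TPM. WT 1 was far below the other WT libraries, and without the 2 libraries of high mitochondrial share Phlda3 was called, at a difference of 1.39. Abhd4, a lipase of N-acyl phospholipids, was at 5.22, 28.7 and 27.0 TPM in WT, 58.5, 62.2 and 55.7 in SMA, 39.4, 30.2 and 13.7 in SMA+Pifithrin-α and 31.1, 20.9 and 22.7 in SMA+SMN-C3 and differed by 1.79 between SMA and WT. Without WT 1, the lowest WT library, the Abhd4 difference was 1.05. Ei24, an endoplasmic reticulum protein of autophagy, was at 19.2, 22.4 and 29.0 TPM in WT and 65.2, 48.4 and 46.0 in SMA and differed by 1.15. Trp53inp1, which links p53 to autophagy and death, was at 0.592, 1.47 and 1.74 TPM in WT and 4.97, 2.76 and 4.54 in SMA and differed by 1.17. SMA lay above WT without overlap in all of them.

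Among the 6 genes of growth and mitosis, Gtse1 and Plk2 rose in SMA. Gtse1 binds microtubules and shuttles p53 out of the nucleus (chr15:85859745-85876573). It was at 0.860, 0.653 and 0.729 TPM in WT, 11.8, 6.19 and 6.33 in SMA, 10.2, 7.04 and 5.13 in SMA+MW150, 9.23, 4.94 and 3.25 in SMA+Pifithrin-α and 1.31, 2.47 and 1.001 in SMA+SMN-C3. All WT libraries were under 1 TPM and all SMA libraries above 6, and SMA exceeded WT by 2.33 ± 0.40 (SE, adjusted p = 0.012). Since no WT library reached the 1 TPM of the filter, this difference is a description. Plk2, a polo-like kinase that in neurons acts at synapses (chr13:110395046-110400844), was at 5.86, 7.13 and 6.91 TPM in WT, 58.0, 28.2 and 27.5 in SMA, 25.5, 27.1 and 28.9 in SMA+MW150, 40.8, 26.2 and 17.9 in SMA+Pifithrin-α and 9.69, 10.9 and 10.3 in SMA+SMN-C3. The WT libraries lay close together, every SMA library was above them, and the SMN-C3 libraries formed a narrow band between. SMA exceeded WT by 2.27 ± 0.33 (SE, adjusted p = 0.0031).

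Psrc1, a spindle protein, was at 0.575, 1.61 and 1.44 TPM in WT, 8.02, 5.82 and 6.34 in SMA and 1.22, 5.69 and 2.44 in SMA+SMN-C3 and Ckap2, another, at 1.26, 2.21 and 4.44 TPM in WT, 9.82, 10.1 and 9.55 in SMA and 5.58, 4.54 and 3.09 in SMA+SMN-C3. Btg2, an antiproliferative gene induced early by stress, was at 6.15, 9.44 and 10.7 TPM in WT, 31.5, 21.6 and 20.6 in SMA and 11.8, 9.11 and 12.2 in SMA+SMN-C3. In all 3 SMA lay above WT without overlap, with differences of 1.83, 1.67 and 1.40, and none was called. Plk3, a stress-responsive polo-like kinase, differed by 0.73 with overlapping groups, or by 0.17 without WT 1.

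The 3 targets of secreted and surface signalling gave no call. Gdf15, a stress hormone that lowers appetite, was listed at 0 in WT 1 and WT 2 and at 0.0363 TPM in WT 3. It was at 1.198, 1.29 and 0.883 TPM in SMA, above WT in each library but low throughout. Its difference of 1.06 on the log2(TPM+1) scale is a description, as for Gtse1. Epha2, an ephrin receptor, was at 0.754, 0.498 and 0.593 TPM in WT and 0.439, 1.97 and 0.171 in SMA with SMA 2 alone above 1 TPM. Rap2b, a small GTPase, was at 4.20, 2.69 and 2.11 TPM in WT and 4.12, 3.53 and 2.77 in SMA. The groups overlapped for both, with intervals of -0.69 to 0.86 for Epha2 and -0.54 to 0.91 for Rap2b.

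**Figure D2:**
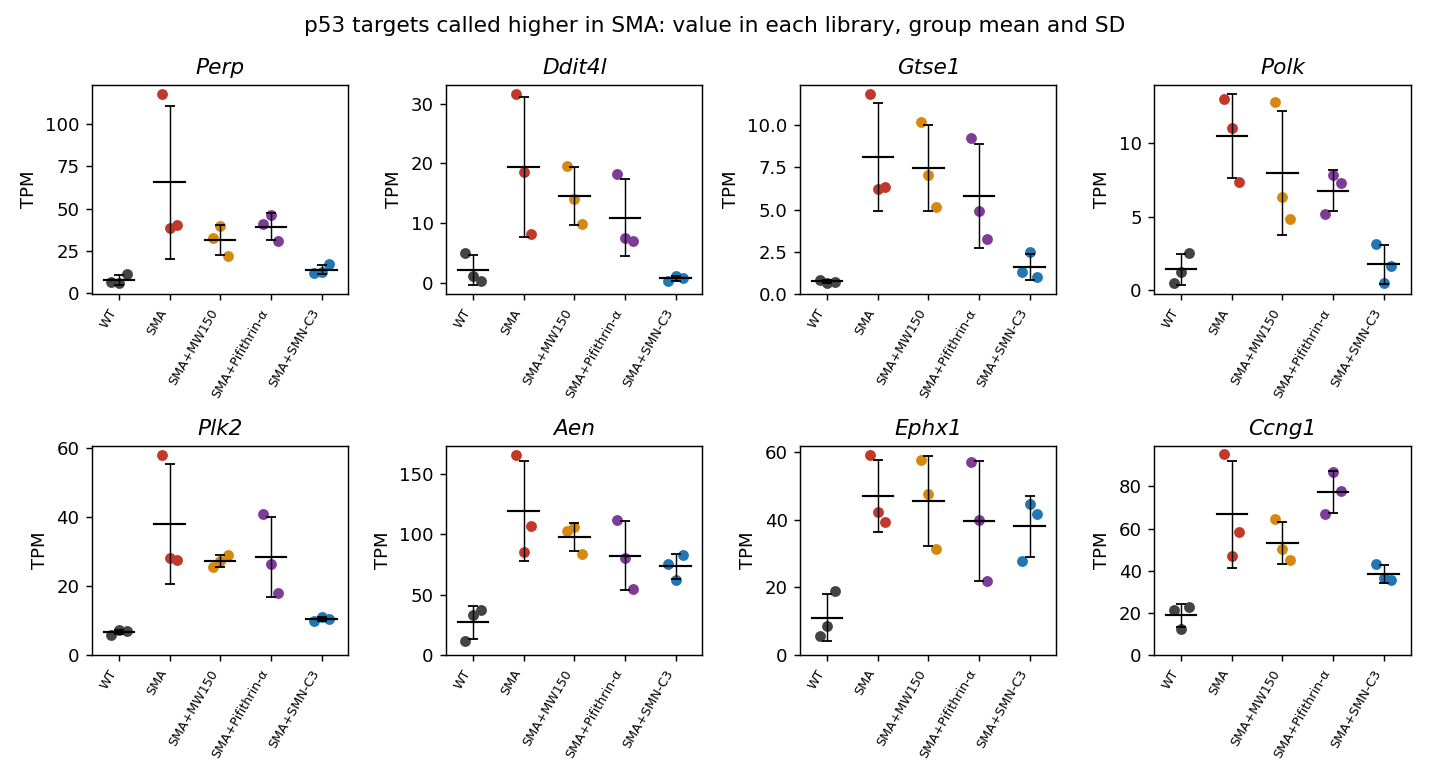
TPM in each library for the 8 targets that rose in SMA, by group, with a bar at the group mean and whiskers of 1 SD (n = 3). SMN-C3 libraries sit near WT for Perp, Ddit4l, Gtse1, Polk and Plk2 and well above WT for Aen, Ephx1 and Ccng1.

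The targets that differed least between SMA and WT were Xpc, Ddb2, Ercc5, Rrm2b, Tigar, Zmat3, Fbxw7, Epha2 and Rap2b. They were not called in SMA against WT and differed by at most 0.5 on the log2 scale, from -0.25 for Ddb2 to 0.32 for Rrm2b. The next target in order of size was Sesn1 at 0.66. Most were expressed: Fbxw7 was at 41.6 TPM or more in every library, and Epha2 was the one under 2 TPM throughout. All 9 overlapped between WT and SMA. Without WT 1, Rrm2b differed by 0.84 and Ercc5 by 0.64. Scaling by median ratios moved the median difference of all genes from 0.24 to 0.03. Under it Tigar, Fbxw7, Epha2 and Rap2b turned from a higher to a lower mean in SMA, at -0.20, -0.01, -0.02 and -0.02.

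To sort the targets by how far each treatment returned them toward WT, the return was computed for the 19 targets with a difference of at least 1. It is the fall from the SMA mean to the treated mean as a percent of the fall from SMA to WT on the log2(TPM+1) scale. A return of 0 is the SMA level and 100 the WT level. SMA libraries enter both parts of the ratio, and all 3 treatments are compared with them, so returns are given as descriptions with no test. The median return over the 19 targets was 14.96% under MW150, 25.5% under Pifithrin-α and 68.5% under SMN-C3. Computed with each treated library alone, the medians were 7.10%, 9.27% and 20.4% for MW150, and -3.67%, 15.1% and 59.9% for Pifithrin-α. For SMN-C3 they were 72.0%, 57.4% and 63.1%. Among the Pifithrin-α libraries, library 3 gave the highest median, and without it alone the median over the group was 7.30%. Without WT 1 and SMA+Pifithrin-α 3 the medians were 16.7%, 8.58% and 76.2%. A return of at least 50% was reached by 0 of the 19 targets under MW150, 2 under Pifithrin-α and 14 under SMN-C3. Pltp was not ranked, as its difference of 0.99 fell just short of the threshold. Without SMA 1 its difference was 1.02, and its returns were 72.6% under MW150, 180% under Pifithrin-α and 136% under SMN-C3. These counts, and the largest returns named below, hold for the 19 ranked targets and depend on that threshold.

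**Figure D3:**
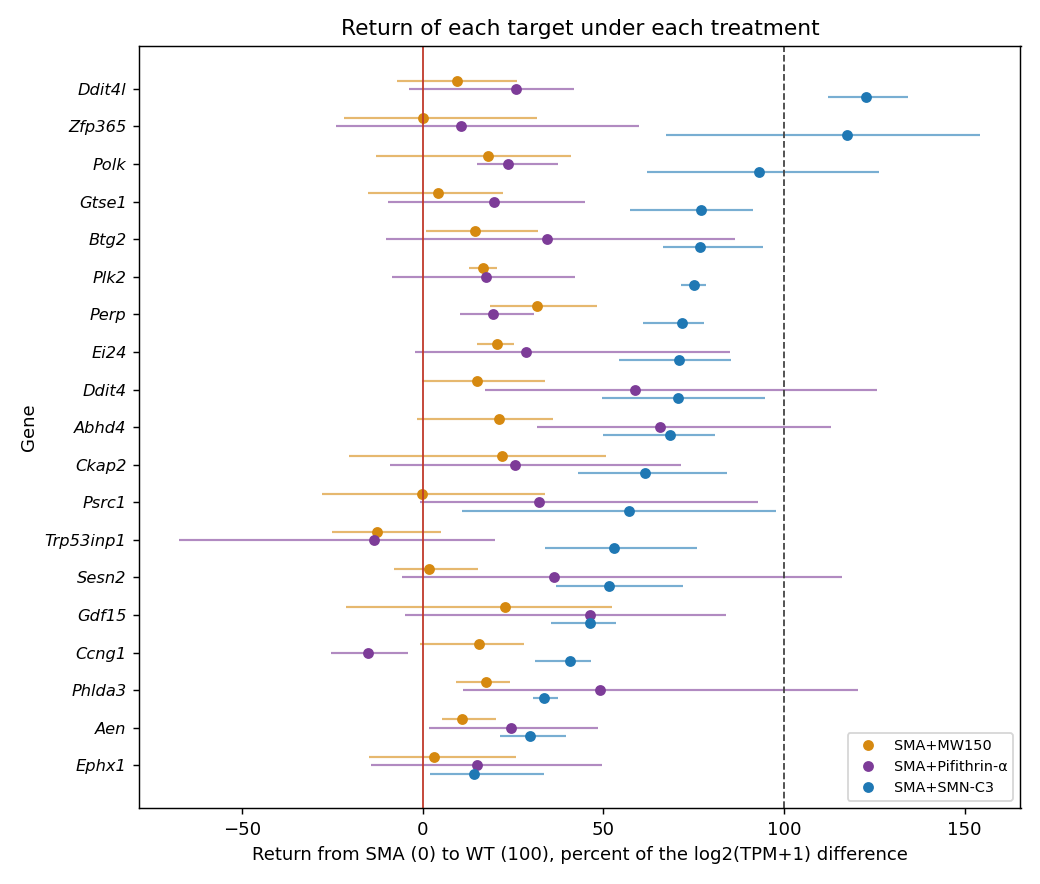
Return of each of the 19 ranked targets from the SMA mean (0, red line) to the WT mean (100, dashed line), in percent of the log2(TPM+1) difference, for the 3 treatments. Points are returns of the group mean and lines span the returns of the 3 single libraries. SMN-C3 points run from 14.2% for Ephx1 to 123% for Ddit4l, MW150 points from -12.8% to 31.6%, and Pifithrin-α lines are wide.

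Under SMN-C3, Ddit4l fell and all 32 targets had a lower mean than in SMA. It was the 1 target called against SMA, with a log2 change of -3.41 ± 0.55 (SE, adjusted p = 0.028 with limma). Among tested genes 0.0648% were called. The median change was -0.76 over the targets and -0.23 over all tested genes, and 17 targets had an unadjusted p under 0.05, all lower, against 8.53% of tested genes. For 21 targets every SMN-C3 library was below every SMA library, against 18.2% of tested genes, and the difference was -1 or lower for 11 targets, against 6.23%. Gdf15 and Epha2 reached 1 TPM in no SMN-C3 library, so a lower value there was in part fixed by the filter. Over the 29 targets with a WT library at 1 TPM these 3 counts were 16, 19 and 10. Without WT 1 and SMA+Pifithrin-α 3, which are in neither group but enter the shared spread, 9 targets were called lower. The share of all tested genes called in that fit is not given here, so the 9 cannot be set against it. These were Abhd4, Btg2, Ddit4l, Ei24, Gtse1, Perp, Plk2, Polk and Zfp365. The call of Ddit4l held without SMA 3 and was lost in each of the other 5 fits that left out 1 SMA or SMN-C3 library. With the microglia mean as a term 0 were called and 8 had an unadjusted p under 0.05, all lower. The microglia sums of SMA and SMN-C3 did not overlap, so here too the term and the contrast cannot be told apart. All 12 microglia markers, all 10 oligodendrocyte lineage markers and all 5 red blood cell markers also had a lower mean in SMN-C3 than in SMA. So did all 7 spinal interneuron, 8 of 10 astrocyte and 6 of 9 vascular markers. Of the 9 motor neuron markers 8 had a higher mean, with a median difference of 0.15. The part of these markers in the differences of the targets was not tested.

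The largest SMN-C3 returns were 123% for Ddit4l, 118% for Zfp365, 93.1% for Polk, 77.2% for Gtse1 and 76.8% for Btg2. The smallest were 14.2% for Ephx1, 29.6% for Aen, 33.7% for Phlda3, 40.9% for Ccng1 and 46.2% for Gdf15. The spread over libraries was small beside this range for Ddit4l (112% to 134%), Plk2 (71.6% to 78.4%) and Phlda3 (30.4% to 37.4%). It was wide for Psrc1, from 10.8% to 97.8%. Returns between these ends were graded, and Sesn2, Trp53inp1, Psrc1 and Ckap2 lay between 51.7% and 61.7%. WT 1 bore on the order. Without it the largest were 128% for Zfp365, 117% for Abhd4, 108% for Polk, 101% for Ddit4l and 90.4% for Btg2, where Abhd4 was at 68.5% with it. Without WT 1 the return of Phlda3 was 49.1% and that of Sesn2 78.1%, and Ephx1 stayed the smallest at 17.1%. Roles were mixed along the order. Ddit4l and Ephx1 both belong to metabolism and growth signalling, and Perp at 71.7% and Aen at 29.6% both belong to the death and autophagy genes.

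Against WT, 0 targets were called in SMN-C3 with limma, where 0.0194% of tested genes were, and 4 had an unadjusted p under 0.05, against 7.31%. These 4 were Ephx1, Aen, Phlda3 and Ccng1, with log2 differences of 1.83, 1.55, 1.34 and 1.04 and adjusted p of 0.25, 0.39, 0.67 and 0.52. For 9 targets every SMN-C3 library was above WT, against 4.03% of tested genes. Beside those 4 they were Perp, Gdf15, Plk2, Gtse1 and Rps27l, and the count was 7 without Gdf15 and Gtse1, which reached 1 TPM in 0 WT libraries. The median difference from WT was 0.33 over the targets and -0.00 over all tested genes.

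Under Pifithrin-α, 0 targets were called against SMA with limma, where 0.00648% of tested genes were, and 3 had an unadjusted p under 0.05, a share of the 32 no higher than the 10.7% of tested genes. These were Pltp, Abhd4 and Ddit4, with changes of -1.81 ± 0.52, -1.17 ± 0.49 and -0.75 ± 0.35 (SE, adjusted p = 0.46 for each). Together with Plk3 they made up the 4 targets whose Pifithrin-α libraries were all below SMA, which held for 9.76% of tested genes. The median change was -0.41 over the targets and -0.22 over all tested genes. Without WT 1 and SMA+Pifithrin-α 3 it was -0.12 over the targets and 0.00 over all genes, with 0 called. Markers of several cells had a lower mean than in SMA here too. This held for all 12 microglia, all 10 oligodendrocyte lineage and all 5 red blood cell markers, with median differences of -1.33, -1.29 and -1.16. It also held for 9 of 10 astrocyte, 6 of 7 spinal interneuron, 5 of 9 vascular and 7 of 9 motor neuron markers, the last with a median of -0.52. Their part in the differences of the targets was not tested.

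The largest Pifithrin-α returns were 65.7% for Abhd4, 58.7% for Ddit4, 49.1% for Phlda3, 46.4% for Gdf15 and 36.2% for Sesn2. Without SMA+Pifithrin-α 3 alone they were 42.0% for Abhd4, 25.2% for Ddit4, 13.5% for Phlda3, 27.7% for Gdf15 and -3.77% for Sesn2. Without WT 1 as well they were 71.4%, 27.3%, 19.6%, 27.9% and -5.69%. The smallest were -15.2% for Ccng1, -13.5% for Trp53inp1, 10.6% for Zfp365, 14.96% for Ephx1 and 17.5% for Plk2. Without SMA+Pifithrin-α 3 alone these became -14.7%, -30.2%, -14.0%, -2.32% and 5.20%. Returns between the ends moved too. Those of Psrc1, Ei24 and Ckap2 were 32.1%, 28.5% and 25.5% with that library and 1.77%, 0.10% and 2.44% without it. For Ccng1 the return was below 0 in each of the 3 libraries, from -25.3% to -4.07%. Against WT, Ccng1, Perp and Plk2 were called higher in Pifithrin-α, by 2.02 ± 0.30 (SE, adjusted p = 0.010), 2.24 ± 0.39 (adjusted p = 0.034) and 1.87 ± 0.33 (adjusted p = 0.034). Among tested genes 0.117% were called and 0.104% were higher. The 13 targets with all Pifithrin-α libraries above WT compared with 4.79% of tested genes, and 15 had an unadjusted p under 0.05, against 5.78%. Over the 29 targets with a WT library at 1 TPM the counts were 10 and 14. Without WT 1 and SMA+Pifithrin-α 3, Ccng1 and Plk2 were called. The share of all tested genes for that fit is not given here. With single libraries of the 2 groups left out, the call of Ccng1 was lost without SMA+Pifithrin-α 2 alone. That of Perp held without WT 3 or SMA+Pifithrin-α 3, and that of Plk2 held without SMA+Pifithrin-α 3.

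Under MW150, 0 targets were called against SMA with limma, where 0.00648% of tested genes were, and 1 had an unadjusted p under 0.05, against 1.9% of tested genes. This was Perp, with a change of -0.88 ± 0.39 (SE, unadjusted p = 0.040, adjusted p = 1.0). The 95% interval of the Perp change was -1.71 to -0.05. No target had all MW150 libraries below SMA, which held for 3.41% of tested genes, although 24 of 32 had a lower mean. The median change was -0.15 over the targets and 0.06 over all tested genes. The largest returns were 31.6% for Perp, 22.8% for Gdf15, 21.9% for Ckap2, 21.2% for Abhd4 and 20.5% for Ei24. The smallest were -12.8% for Trp53inp1, -0.31% for Psrc1, 0.07% for Zfp365, 1.72% for Sesn2 and 3.04% for Ephx1. The median return depended on SMA 1, which was the highest SMA library for 22 of the 32 targets, and was 1.41% without it. Of the 12 microglia markers 10 had a lower mean in MW150 than in SMA, as had 8 of 10 astrocyte and 4 of 5 red blood cell markers. A higher mean was found for 8 of 10 oligodendrocyte lineage, 7 of 9 vascular, 5 of 9 motor neuron and 4 of 7 spinal interneuron markers.

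Against WT, Gtse1 and Plk2 were called higher in MW150, by 2.23 ± 0.40 (SE, adjusted p = 0.027) and 1.89 ± 0.33 (adjusted p = 0.026), where 0.143% of tested genes were called and 0.136% were higher. For 21 targets all MW150 libraries were above WT, against 17.9% of tested genes, and 20 had an unadjusted p under 0.05, against 10.2%. Over the 29 targets with a WT library at 1 TPM, which leave out Gtse1, the counts were 1 called, 19 above WT and 18 with such a p. The median difference was 1.14 over the targets and 0.31 over all tested genes. Both calls were lost in each of the 6 fits that left out 1 MW150 or WT library, with adjusted p of 0.068 to 0.27 for Gtse1 and 0.058 to 0.15 for Plk2. With WT 1 and SMA+Pifithrin-α 3 both left out, 7 were called, and the share of all tested genes for that fit is not given here.

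Set against each other, the treatments gave 0 called targets in all 3 pairs with limma. Of tested genes 0% were called between MW150 and Pifithrin-α, 0.00648% between MW150 and SMN-C3 and 0% between Pifithrin-α and SMN-C3. The doses differ, and each was the single dose of its agent. Between MW150 and SMN-C3, all 32 targets had a higher mean in MW150, 9 with an unadjusted p under 0.05 against 11.5% of tested genes, and Ddit4l differed by 3.15 ± 0.55 (SE, adjusted p = 0.064). The groups did not overlap for 21 targets, against 27.5% of tested genes. Over the 29 targets with a WT library at 1 TPM, 8 had such a p and 20 did not overlap. Without WT 1 and SMA+Pifithrin-α 3, 7 targets were called higher in MW150, which were Abhd4, Ddit4l, Gtse1, Plk2, Polk, Rrm2b and Zfp365. The share of all tested genes for that fit is not given here. Between Pifithrin-α and SMN-C3, 8 had an unadjusted p under 0.05, all higher in Pifithrin-α, against 7.15% of tested genes, and 11 did not overlap, against 9.83% of tested genes. Over the same 29 targets these counts were 7 and 9. Ddit4l was again the widest, at 2.69 ± 0.55 (SE, adjusted p = 0.21), and Ccng1 differed by 0.98 with an interval of 0.36 to 1.61. Between MW150 and Pifithrin-α, Pltp and Tigar had an unadjusted p under 0.05, higher in MW150 by 1.10 and 0.78. These 2 of 32 are a smaller share than the 8.99% of tested genes.

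**Figure D4:**
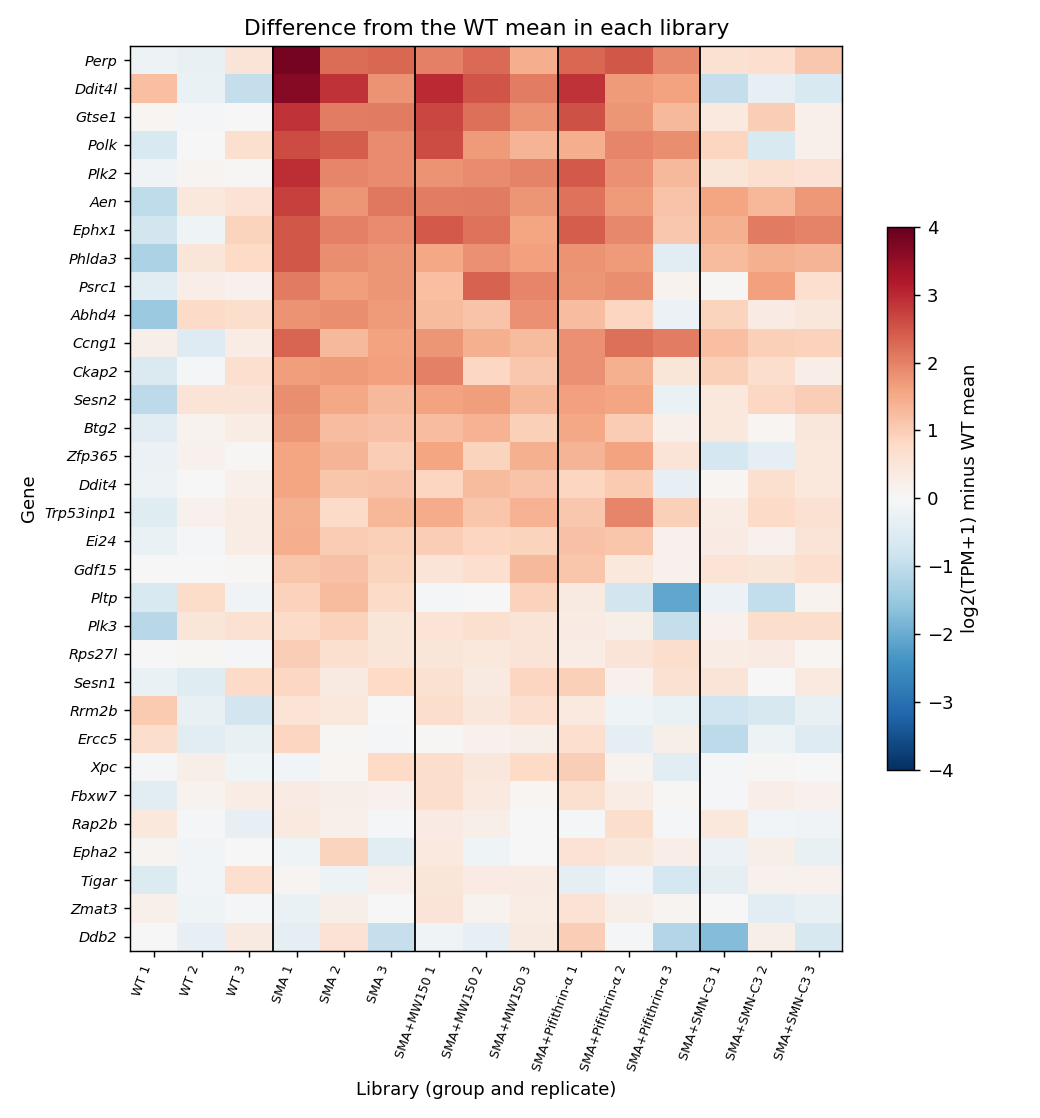
Difference of each library from the WT mean, in log2(TPM+1), for the 32 targets in order of their difference between SMA and WT. Red is above WT and blue below. The red block of SMA 1 to SMA 3 and MW150 1 to MW150 3 is paler in SMN-C3. Among the 19 ranked targets it pales least for Ephx1, Aen and Phlda3. SMA+Pifithrin-α 3 is paler than the other libraries of its group.

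The transcript table gives the forms behind 3 of the called targets, as a description. For Polk the coding form Polk-201 was at 0.0795, 0.558 and 1.96 TPM in WT and 11.6, 8.05 and 6.65 TPM in SMA. The retained-intron form Polk-207 stayed low, at 0.289, 0.678 and 0.260 TPM in WT and 1.02, 1.67 and 0.486 TPM in SMA. Ddit4l has 2 coding forms. The shorter, Ddit4l-202, was at 0, 0 and 0.160 TPM in WT and 14.97, 6.64 and 3.35 TPM in SMA. In SMN-C3 it was at 0, 0.694 and 0 TPM. Of the 2 coding forms of Gtse1, the one that starts further upstream was at 0.357, 0 and 0.00118 TPM in WT and 4.90, 3.70 and 2.13 TPM in SMA. The main form, Gtse1-202, was at 0.502, 0.653 and 0.728 TPM in WT and 6.92, 2.49 and 4.20 TPM in SMA. For both genes each of the 2 coding forms had a higher mean in SMA. The split between forms is the quantifier's estimate, and the share of a form varied between libraries of 1 group.

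The rest of the p53 pathway, 17 genes of arrest, core apoptosis and p53 control, gave 4 calls between SMA and WT, where 0.363% of tested genes were called. Cdkn1a, the arrest gene p21, rose by 4.51 ± 0.40 (log2, SE, adjusted p = 1.8e-05), the death receptor Fas by 3.42 ± 0.50 (adjusted p = 0.0031), Pmaip1, or Noxa, by 2.71 ± 0.47 (adjusted p = 0.014) and Mdm2 by 1.69 ± 0.32 (adjusted p = 0.025). The median difference of the 17 was 1.42, and 12 of them had an unadjusted p under 0.05, against 13.5% of tested genes. Sfn reached 1 TPM in no WT library. Mdm4 and Gadd45a differed by -0.02 and 0.10. Against SMA, 0 of the 17 were called under any treatment with limma, and 0, 5 and 8 had an unadjusted p under 0.05 in MW150, Pifithrin-α and SMN-C3, all lower. Of tested genes 1.9%, 10.7% and 8.53% had such a p. Against WT, Cdkn1a was called under all 3 treatments, at 4.28 in MW150, 3.26 in Pifithrin-α and 2.88 in SMN-C3.

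Some target values may include reads of other genes. Exons on the opposite strand overlap Ddb2 (with Acp2), Ei24, Plk3 (with Tctex1d4), Pltp (with Ctsa), Rap2b, Rrm2b and Tigar, and no source used here states whether strand was used in the quantification.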

How the data were processed

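RNA from laser-captured lumbar motor neurons was measured in 15 libraries, 3 in each of 5 groups, and samples were grouped by their titles. The authors deposited TPM per gene and per transcript, and kallisto 0.44.0 and GRCm38.p6 are named in the submitters' processing notes. The annotation release is not given in the sources used here. Transcript names and coordinates come from GENCODE M21, which held 116728 of 118489 transcripts (98.5%). The deposited TPM hold no counts, so no depth, interval of a share or detection floor is given. All columns were used.

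The 15425 genes that reached 1 TPM in 3 or more libraries entered the tests, as log2(TPM+1), a scale that understates changes of low genes. In R 4.3.3, limma 3.58.1 fitted 1 mean for each group to the 15 libraries, moderating the variances with a trend on expression. Tests were two-sided, with Benjamini-Hochberg adjustment over all tested genes within a comparison, and a gene was called at an adjusted p under 0.05. SMA and WT libraries are shared by several comparisons. Tested on simulated data with 200 of 15425 genes changed between SMA and WT, the fit recovered 0.5% at log2 1, 71.5% at 2 and 99% at 4. Tables and figures used Python 3.11.15, pandas 2.3.3 and matplotlib 3.10.9.

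The targets, the lists and the rules were chosen with earlier results of these data known. WT and SMA values in each library are given for targets called in any comparison, the 5 with the largest and the 5 with the smallest return under each treatment, and those not called in SMA against WT with a log2 difference of at most 0.5 in size. Values in each treated library are given for the called targets and for some of the others. Alternatives were another pseudocount, other filters, scaling and normalization, weights per library, 2 covariates, 2-group fits, a replicate block and leaving out libraries. The array weights used limma's gene-by-gene method, since the other did not converge.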

Additional observations from a re-analysis of the deposited data

How the results depend on the processing

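The sign of the difference between SMA and WT held for all 8 called targets under each alternative, and 0 targets were called between MW150 and SMA under any. Counts of called targets for SMA against WT (8) became 3 with no filter, 5 with median-of-ratios scaling, 0 with only the groups compared and 0 with the microglia mean as a term. For SMN-C3 against SMA (1) they became 0 with no filter, quantile normalization, only the groups compared or the microglia term, 3 with mitochondrial share as a term, 8 with array weights and 9 without the 2 libraries of highest mitochondrial share, a setting added after seeing the data. For MW150 against WT (2) they became 0 with no filter, only the groups compared or the microglia term, 1 with genes of a mean under 5 TPM dropped, 4 without mitochondrial genes or with mitochondrial share as a term, 9 with array weights and 7 without the 2 libraries. For Pifithrin-α against WT (3) they became 1 with no filter, 0 with only the groups compared, 17 with array weights, and 6 with median-of-ratios scaling, mitochondrial share or the microglia term. Where 0 were called, array weights gave 2 for Pifithrin-α against SMA (Abhd4 and Pltp), 2 for SMN-C3 against WT, 3 for MW150 against Pifithrin-α, 11 for MW150 against SMN-C3 and 13 for Pifithrin-α against SMN-C3. MW150 against SMN-C3 also gave 6 with only the groups compared, 1 with mitochondrial share as a term and 7 without the 2 libraries. The cause of these changes was not tested. Shares of all tested genes called under these alternatives are not given here, so the counts describe the targets alone. The microglia sums of SMA did not overlap those of WT, SMA+Pifithrin-α or SMA+SMN-C3, and those of SMA+MW150 did not overlap those of WT. The microglia term therefore cannot be separated from these contrasts. The same limit holds for the median returns with that term, which rest on SMA and WT.

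Leaving out 1 library gave 2 to 7 called targets for SMA against WT, 0 to 1 for SMN-C3 against SMA, 0 to 2 for MW150 against WT and 0 to 5 for Pifithrin-α against WT. Median returns were then 1.41% to 21.7% for MW150, 7.30% to 40.6% for Pifithrin-α and 54.6% to 76.2% for SMN-C3. With median-of-ratios scaling the median return was 22.3% for MW150 and 14.1% for Pifithrin-α, the opposite order to 14.96% and 25.5% without it. With quantile normalization they were 18.4% and 17.2%. For Pifithrin-α it was -0.21% with mitochondrial share as a term and -9.12% with the microglia term, where 13 and 11 targets still differed by at least 1. For SMN-C3 it became 60.5% with quantile normalization, 49.6% with the microglia term (the same 11) and 76.2% without the 2 libraries.

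Replicate numbers did not pair the samples, since correlations of same-numbered samples ran from -0.34 to 0.29 and 4 of 30 exceeded 0.1. The replicate block gave 6 called targets for SMA against WT, 1 for Pifithrin-α against WT, 1 for MW150 against SMN-C3, 3 for MW150 against WT and 1 for SMN-C3 against SMA.

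Targets near 0 changed sign between SMA and WT. Tigar went to -0.20 with median-of-ratios scaling, -0.068 without mitochondrial genes, -0.18 with quantile normalization, -0.15 with array weights, -0.29 with mitochondrial share, -0.32 with the microglia term, -0.25 without the 2 libraries, and -0.25 to 0.36 with 1 library left out. Epha2 went to -0.077 with pseudocount 0.1, -0.024 with median-of-ratios scaling, -0.17 with quantile normalization, -0.54 with the microglia term and -0.31 to 0.36 with 1 library left out. Fbxw7 went to -0.010 with median-of-ratios scaling, -0.038 with mitochondrial share and -0.44 with the microglia term. Rap2b went to -0.025 with median-of-ratios scaling and -0.086 with quantile normalization. Xpc went to -0.0085 with mitochondrial share, -0.49 with the microglia term and -0.0063 to 0.44 with 1 library left out. Zmat3 went to 0.10 with array weights, 0.048 with mitochondrial share, 0.10 without the 2 libraries and -0.13 to 0.13 with 1 library left out. With 1 library left out Rrm2b ran from -0.048 to 0.84 and Ddb2 from -0.65 to 0.088. TPM without counts and 3 libraries a group limit the precision: the simulated recovery of 0.5% at a log2 change of 1 means that most changes of that size go uncalled.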
